A study of Homo sapiens with 14 samples.

Results

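Expression of 9 genes of the JAK-STAT pathway was followed in LY2 breast cancer cells. They were the kinases JAK1 and JAK2, the transcription factors STAT2, STAT3, IRF1 and IRF9, and the feedback inhibitors SOCS1, SOCS3 and CISH. Genes were listed by their role in the pathway, with earlier results of these data known. Counts of member probe sets, several of them of the same gene, are therefore descriptions, also where set beside all probe sets. Every probe set annotated to the listed genes alone on the Affymetrix HG-U133 Plus 2.0 array was taken, whatever its value. This gave 26 of 54613 probe sets and covered 8 of the 9 genes, with 5 probe sets for JAK1, 4 each for STAT3, SOCS1 and SOCS3, 3 each for JAK2 and CISH, 2 for IRF1 and 1 for IRF9. STAT2 had no entry in the annotation used and its expression was not analysed here, and 1 probe set shared by IRF9 and RNF31 was left out. The mean signal of 19 of the 26 lay above 3.47, the median over all probe sets on the log2 scale used throughout.

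LY2 is a line derived from the estrogen-dependent breast cancer line MCF-7 and resistant to anti-estrogens. The study lowered SRC-1, a coactivator of nuclear receptors encoded by NCOA1, to find the genes that need it in these cells. Cells of every group had been maintained in 10 nM 4-hydroxytamoxifen, the active metabolite of tamoxifen, and then kept 72 hours without it. They were transfected with 40 nM of an siRNA against SRC-1 or of a scrambled control siRNA, and after 24 hours received 100 nM 4-hydroxytamoxifen, or ethanol as vehicle (called untreated), for 2 hours. The 14 arrays fell into 4 groups. Untreated cells with control siRNA, tamoxifen-treated cells with control siRNA and untreated cells with SRC1 siRNA had 4 arrays each (replicates 1 to 4), and tamoxifen-treated cells with SRC1 siRNA had 2 (replicates 1 and 3). The knockdown thus rests on 1 cell line and 1 siRNA product. Labels call the replicates biological and say nothing more about separate cultures, so p-values measure the spread between these arrays.

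A cytokine that binds its receptor activates the Janus kinases (JAKs) bound to the receptor's tail, and these phosphorylate STAT proteins, which then enter the nucleus. Type I and type III interferons act through the complex ISGF3, which holds STAT2 and IRF9 and binds the interferon-stimulated response element (ISRE), while interferon gamma, interleukin-6 and prolactin signal through STAT dimers that bind the GAS element. SOCS1, SOCS3 and CISH are transcribed in response to activated STATs and damp the receptor or its kinase, and IRF1 is a transcription factor induced by interferon gamma that drives antigen presentation genes.

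The sequence upstream of the transcription start is shown for the 4 members in which the letters of a STAT or ISGF3 element were found. Of these, IRF1, SOCS1 and CISH changed in the comparisons below and IRF9 did not pass there. JAK2 changed as well and had no match. A link between matches and changes was not tested. All 9 members had a RefSeq promoter entry (GRCh38.p14), and the 250 bases before the start were searched on both strands for TTCNNNGAA (GAS), GAAA, any 2 bases and GAAA (ISRE core), and GGTCA, any 3 bases and TGACC (the estrogen response element). Capitals mark the matches, which do not overlap each other. The windows, each written 5′ to 3′ on the gene's strand, are IRF1 at chr5:132490774-132491023 (minus strand), IRF9 at chr14:24161015-24161264 (plus strand), SOCS1 at chr16:11256205-11256454 (minus strand) and CISH at chr3:50611775-50612024 (minus strand).
IRF1: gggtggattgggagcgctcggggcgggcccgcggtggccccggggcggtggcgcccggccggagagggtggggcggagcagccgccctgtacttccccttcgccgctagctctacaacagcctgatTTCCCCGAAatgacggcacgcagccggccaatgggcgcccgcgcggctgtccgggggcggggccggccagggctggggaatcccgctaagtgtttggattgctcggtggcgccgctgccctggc
IRF9: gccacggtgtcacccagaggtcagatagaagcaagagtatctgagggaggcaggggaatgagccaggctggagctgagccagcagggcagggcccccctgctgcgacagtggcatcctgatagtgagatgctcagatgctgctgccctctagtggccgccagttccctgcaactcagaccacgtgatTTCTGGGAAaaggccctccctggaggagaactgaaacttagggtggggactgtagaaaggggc
SOCS1: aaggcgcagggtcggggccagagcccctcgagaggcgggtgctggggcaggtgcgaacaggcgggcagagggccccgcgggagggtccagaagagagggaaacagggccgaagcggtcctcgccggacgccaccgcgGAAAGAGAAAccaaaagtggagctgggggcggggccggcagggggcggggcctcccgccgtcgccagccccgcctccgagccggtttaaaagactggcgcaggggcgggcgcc
CISH: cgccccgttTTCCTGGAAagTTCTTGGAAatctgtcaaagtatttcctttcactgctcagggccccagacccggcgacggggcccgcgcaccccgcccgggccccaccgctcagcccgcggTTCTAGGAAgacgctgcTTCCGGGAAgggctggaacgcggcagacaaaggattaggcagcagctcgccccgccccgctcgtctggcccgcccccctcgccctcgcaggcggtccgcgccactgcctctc

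IRF1 carried 1 GAS match, TTCCCCGAA, 124 to 116 bases before the start, and IRF9 carried 1, TTCTGGGAA, 63 to 55 bases before it. SOCS1 carried 1 ISRE core, GAAAGAGAAA, 113 to 104 bases before the start. CISH carried 4 GAS matches, TTCCTGGAA at 241 to 233, TTCTTGGAA at 230 to 222, TTCTAGGAA at 129 to 121 and TTCCGGGAA at 112 to 104. Over 35116 promoters of the same length, 6.57% held a GAS match, 3.02% an ISRE core and 0.0399% an estrogen response element, and 5 (0.0142%) held 4 or more GAS matches. The letters of the 3 motifs are not in the windows of JAK1, JAK2, STAT2, STAT3 or SOCS3. A match describes the letters and not binding, which was not measured here.

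The siRNA target was lower in both treatments: all 4 probe sets of NCOA1 fell by 1.10 to 1.40 in untreated and by 1.11 to 1.50 in tamoxifen-treated cells (log2, limma adjusted p under 0.05 for each). The mean of 10 luminal epithelial markers, among them ESR1, KRT8 and EPCAM, ran from 12.42 to 12.51 over the 14 arrays, and that of 5 lymphoid markers, none above the median of all probe sets, from 1.78 to 1.96. Arrays of the same replicate number did not deviate together from their group means. The 18 pairwise correlations of these deviations ran from -0.585 to -0.0421, and the replicate number explained so little variance that its F statistic fell in the lowest 5% of the null distribution for 77.8% of all probe sets and for 19 of the 26 member probe sets. The sources used here do not say whether values were adjusted between numbers. The part of any such step in the p-values was not tested. Because arrays of different numbers differed less than independent arrays would, the p-values of the fit without the number may be too small. Calls that end when the replicate number enters the model are therefore named, or counted for gene lists, beside the result. Precision is limited by the number of arrays.

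In untreated cells, SRC1 siRNA raised JAK2, IRF1 and SOCS1. Of the 26 member probe sets, 6 rose and 0 fell (limma, Benjamini-Hochberg adjusted over all probe sets). Over all probe sets 10.4% passed, 4.99% as higher and 5.36% as lower. In tamoxifen-treated cells, 5 rose, all of JAK2 and IRF1, and 3 fell, all of CISH, where 13.5% of all probe sets passed, 5.76% as higher and 7.7% as lower. The median difference of the 26 was 0.074 and 0.073 in these comparisons, against -0.004 and -0.024 for all probe sets, so most members lay near the bulk. With the replicate number in the model, 3 members passed in untreated cells (3.94% of all probe sets) and 1 in tamoxifen-treated cells (2.24%). The plot of log2 signal by siRNA and treatment shows each member through its brightest probe set.

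**Figure D1:**
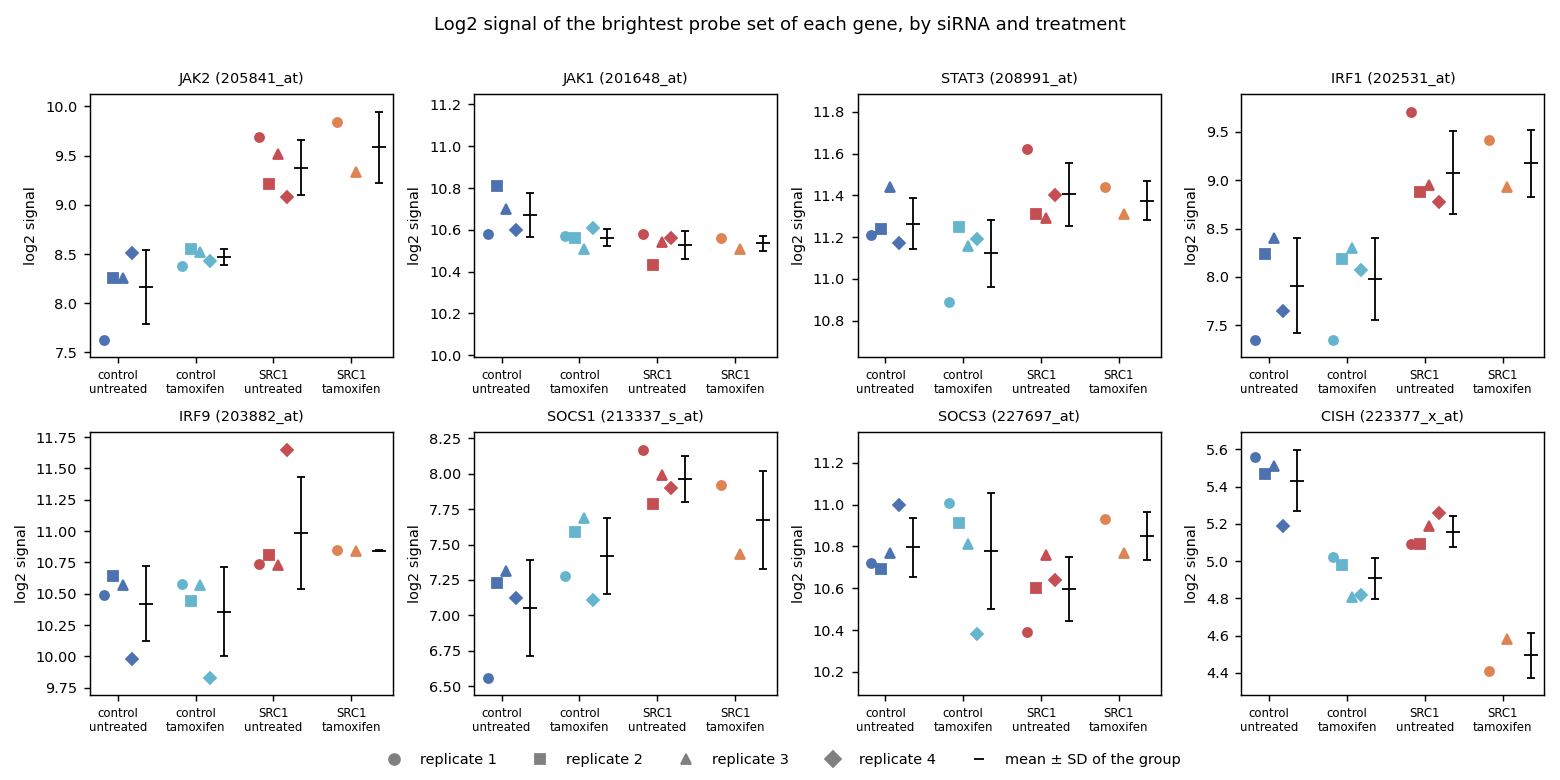
Log2 signal of the brightest probe set of each of the 8 measured genes in the 14 arrays, by siRNA and treatment, with symbols for the replicate number and bars for the group mean ± SD. JAK2 and IRF1 lie higher in every SRC1-siRNA array than in every control-siRNA array, whereas CISH is lowest in the SRC1-siRNA tamoxifen arrays, at 4.41 and 4.58.

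Among the kinases, JAK2, which serves the receptors of interferon gamma, interleukin-6, prolactin and growth hormone, rose most. Probe set 205842_s_at read 5.04, 5.46, 5.85 and 6.07 in untreated control-siRNA replicates 1 to 4 and 8.08, 7.46, 7.37 and 7.12 in untreated SRC1-siRNA replicates 1 to 4. With tamoxifen it read 5.31, 5.92, 5.96 and 5.88 in control-siRNA and 8.23 and 7.64 in SRC1-siRNA arrays. Every SRC1-siRNA array was thus above every control-siRNA array, and replicate 1 held both the lowest control and the highest SRC1-siRNA arrays. The rise was 1.90 ± 0.24 (difference of log2 means ± SE, n = 4 and 4), or 3.74-fold, in untreated cells (limma adjusted p = 7.2e-04) and 2.17 ± 0.30 (n = 4 and 2), or 4.49-fold, with tamoxifen (limma adjusted p = 0.00128). Both calls held in all 27 alternative settings, the replicate number as a term included.

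JAK2 probe set 205841_at read 7.63, 8.26, 8.26 and 8.51 in untreated control-siRNA and 9.69, 9.21, 9.52 and 9.08 in untreated SRC1-siRNA arrays. With tamoxifen it read 8.38, 8.55, 8.52 and 8.43 in control-siRNA arrays and 9.84 and 9.33 in SRC1-siRNA arrays. Here too the siRNA groups did not overlap, and in order the group means were 8.16, 8.47, 9.37 and 9.58 for control untreated, control tamoxifen, SRC1 untreated and SRC1 tamoxifen. Only the step between the control-siRNA and the SRC1-siRNA groups exceeded the spread: the rise was 1.21 ± 0.18 in untreated cells (limma adjusted p = 0.00136) and 1.11 ± 0.22 with tamoxifen (limma adjusted p = 0.00634). The second of these did not pass with the replicate number in the model (adjusted p = 0.0523) or without SRC1 siRNA tamoxifen replicate 1 (0.85, adjusted p = 0.0985).

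The third JAK2 probe set, 1562031_at, read 4.01, 4.55, 5.28 and 5.51 against 5.97, 5.39, 5.78 and 5.21 in untreated cells, so control-siRNA replicates 3 and 4 reached into the SRC1-siRNA range. Its difference there was 0.75 ± 0.30 and did not pass (limma adjusted p = 0.131). With tamoxifen, 5.12, 4.92, 4.25 and 4.68 stood against 6.55 and 6.07, a rise of 1.57 ± 0.36 (limma adjusted p = 0.0143, or 0.0831 with the replicate number in the model). It did not pass without SRC1 siRNA tamoxifen replicate 1 (1.33, adjusted p = 0.138), nor with all arrays of number 1 or of number 3 left out. The 3 probe sets followed each other over the 14 arrays with Pearson r between 0.85 and 0.97, a description of arrays that share the siRNA difference.

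JAK1, the kinase shared by the interferon receptors and those of the interleukin-6 family, had 5 probe sets and none passed in any comparison. The brightest, 201648_at, read 10.58, 10.81, 10.70 and 10.60 in untreated control-siRNA and 10.58, 10.43, 10.54 and 10.56 in untreated SRC1-siRNA arrays, groups that touch at 10.58. The difference was -0.14 ± 0.06, with a 95% interval from -0.27 to -0.02 (limma adjusted p = 0.132). Its interval with tamoxifen ran from -0.18 to 0.13, so a change as large as that of JAK2 lies outside both. Over the 5 probe sets and the 4 comparisons, differences ran from -0.32 to 0.16.

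Of the transcription factors, IRF1, which activates antigen presentation and guanylate-binding protein genes, rose. Probe set 202531_at read 7.35, 8.24, 8.40 and 7.65 in untreated control-siRNA and 9.71, 8.88, 8.95 and 8.78 in untreated SRC1-siRNA arrays. With tamoxifen it read 7.35, 8.19, 8.30 and 8.07 against 9.42 and 8.93. All 6 SRC1-siRNA arrays were above all 8 control-siRNA arrays, the lowest control arrays were those of replicate 1 and the highest SRC1-siRNA array was also of replicate 1. The rise was 1.17 ± 0.27, or 2.25-fold, in untreated cells (limma adjusted p = 0.0158) and 1.19 ± 0.33, or 2.29-fold, with tamoxifen (limma adjusted p = 0.0322). With the replicate number in the model neither passed (adjusted p = 0.0515 and 0.125). The call in untreated cells also ended with all arrays of number 2 left out (1.35, adjusted p = 0.0555) or all of number 4 (1.18, adjusted p = 0.0564). With tamoxifen the call ended in 9 of 27 settings, among them leaving out all arrays of any 1 number. It also ended without SRC1 siRNA tamoxifen replicate 1, 1 of only 2 arrays (0.95, adjusted p = 0.241), without SRC1 siRNA tamoxifen replicate 3 (1.44, adjusted p = 0.0613) and without control siRNA tamoxifen replicate 1 (0.99, adjusted p = 0.0605).

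The other IRF1 probe set, 238725_at, read 6.71, 7.69, 7.96 and 7.13 against 8.92, 8.11, 8.26 and 8.52 in untreated cells, and 6.84, 7.65, 7.70 and 6.90 against 8.92 and 8.12 with tamoxifen. It gave the same separation, with rises of 1.08 ± 0.29 (limma adjusted p = 0.0336) and 1.25 ± 0.36 (limma adjusted p = 0.0372). Neither passed with the replicate number in the model (adjusted p = 0.0904 and 0.14), and each call ended in 9 of 27 settings. Leaving out control siRNA untreated replicate 1 or 4, or SRC1 siRNA untreated replicate 1, 3 or 4, ended the call in untreated cells, with differences of 0.86 to 1.14, and leaving out control siRNA tamoxifen replicate 1 or 4 or SRC1 siRNA tamoxifen replicate 1 ended that with tamoxifen, at 0.85 to 1.12. Over the 14 arrays the 2 probe sets had a Pearson r of 0.96.

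IRF9, the DNA-binding subunit of ISGF3, did not pass in either comparison, and its value rested on replicate 4. It read 10.49, 10.64, 10.57 and 9.98 in untreated control-siRNA and 10.74, 10.81, 10.73 and 11.65 in untreated SRC1-siRNA arrays. In replicate 4 the control-siRNA array was thus the lowest and the SRC1-siRNA array the highest of its group, while replicates 1 to 3 differed by 0.25, 0.17 and 0.17. The difference was 0.57 ± 0.22 (limma adjusted p = 0.122), and without the replicate 4 arrays it was 0.20 (adjusted p = 0.0943). With tamoxifen, 10.58, 10.44, 10.57 and 9.83 stood against 10.85 and 10.84, a difference of 0.49 ± 0.27 (limma adjusted p = 0.246), which without the replicate 4 arrays was 0.31 and passed (adjusted p = 0.0219). Groups did not overlap in either treatment.

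STAT3, the main transcription factor of the interleukin-6 family of cytokines, had 4 probe sets and none passed. The brightest, 208991_at, read 11.21, 11.24, 11.44 and 11.17 against 11.62, 11.31, 11.29 and 11.40 in untreated cells, where the groups overlapped. The difference was 0.14 ± 0.09, with a 95% interval from -0.06 to 0.35 (limma adjusted p = 0.378). With tamoxifen, 10.89, 11.25, 11.16 and 11.19 stood against 11.44 and 11.31, a difference of 0.25 ± 0.12 with an interval from 0.00 to 0.50 (limma adjusted p = 0.17). Over its 4 probe sets and the 4 comparisons, differences ran from -0.23 to 0.25.

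Among the feedback inhibitors, SOCS1, which binds and blocks JAK kinases, rose in untreated cells. Probe set 213337_s_at read 6.56, 7.23, 7.31 and 7.12 in untreated control-siRNA and 8.17, 7.79, 7.99 and 7.90 in untreated SRC1-siRNA arrays. With tamoxifen it read 7.28, 7.59, 7.69 and 7.11 against 7.92 and 7.43. The untreated groups were well apart, whereas with tamoxifen SRC1 siRNA replicate 3, at 7.43, lay inside the control-siRNA range. The rise in untreated cells was 0.91 ± 0.17, or 1.88-fold (limma adjusted p = 0.00546), and held in all 27 settings. With tamoxifen the difference was 0.26 ± 0.21, with a 95% interval from -0.20 to 0.72 (limma adjusted p = 0.45). The test of the difference between these effects, the interaction, gave -0.65 ± 0.27 and did not pass (limma adjusted p = 0.25).

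SOCS1 probe set 210001_s_at read 5.33, 5.63, 5.64 and 5.67 against 6.85, 6.33, 6.45 and 6.50 in untreated cells, a rise of 0.97 ± 0.24 without overlap (limma adjusted p = 0.0205). This call ended with the replicate number in the model (adjusted p = 0.0608). It also ended when untreated replicate 1 was left out, whether that of control siRNA (difference 0.89, adjusted p = 0.0573) or that of SRC1 siRNA (difference 0.86, adjusted p = 0.0631). With all arrays of number 1, 2 or 3 left out it was 0.78, 1.05 and 1.02 and did not pass (adjusted p = 0.101, 0.0596 and 0.0579). With tamoxifen, 5.21, 6.21, 6.28 and 5.14 stood against 6.64 and 6.23, and the difference of 0.72 ± 0.29 did not pass (limma adjusted p = 0.115). The tamoxifen-treated control-siRNA arrays spread more than any other group of this probe set, with an SD of 0.62 against 0.16 in untreated control-siRNA arrays. The remaining SOCS1 probe sets, 209999_x_at and 210000_s_at, had means of 2.57 and 1.99, below the median of all probe sets, and did not pass.

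SOCS3, the inhibitor that acts on the receptors of the interleukin-6 family, had 4 probe sets and none passed in any comparison. The brightest, 227697_at, read 10.72, 10.69, 10.77 and 11.00 against 10.39, 10.60, 10.76 and 10.64 in untreated cells, with overlapping groups. The difference was -0.20 ± 0.12, with a 95% interval from -0.47 to 0.07 (limma adjusted p = 0.341), which does not reach the rise of SOCS1. With tamoxifen, 11.01, 10.91, 10.81 and 10.38 stood against 10.93 and 10.77, a difference of 0.07 with an interval from -0.25 to 0.40.

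The plot of all differences sets these results side by side. In untreated cells 7 of the 26 member probe sets (26.9%) were higher with SRC1 siRNA without any overlap of the groups, against 7.92% of all probe sets, and 6 of these 7 are the calls of JAK2, IRF1 and SOCS1, the other being IRF9. Of the 26, 1 was wholly lower (3.85%, against 8.31%). With tamoxifen, where only 2 arrays stand on 1 side, 8 were wholly higher and 8 wholly lower (30.8% each, against 14.9% and 21.1%), of which 5 and 3 were called. For tamoxifen in control-siRNA cells 0 were wholly higher (4.95% of all) and 3 wholly lower (11.5%, against 3.91%), 2 of them called. In SRC1-siRNA cells 2 were wholly higher (7.69%, against 10.8%) and 4 wholly lower (15.4%, against 13.6%), 3 of them called.

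**Figure D2:**
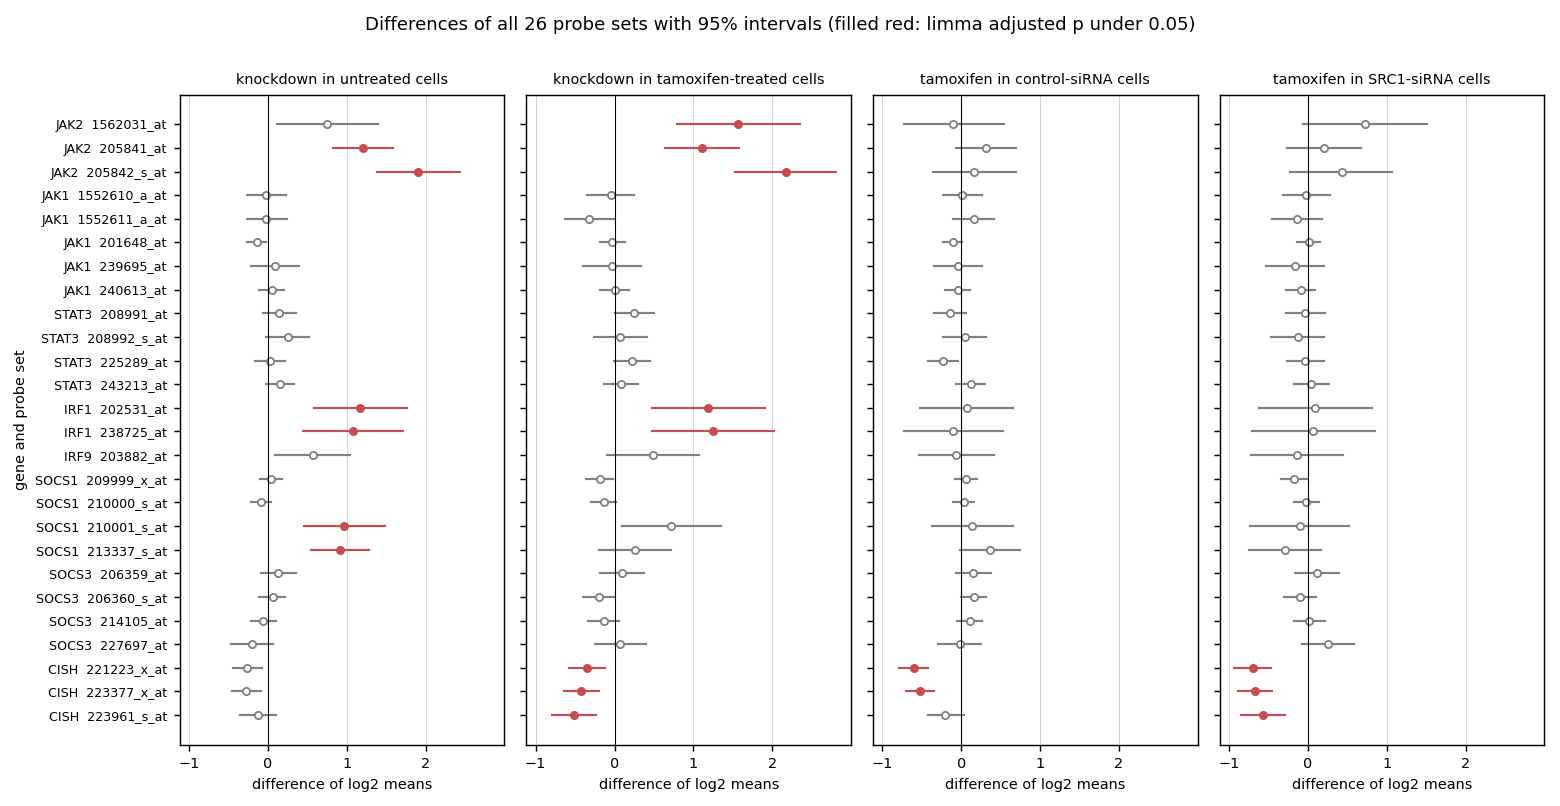
Difference of log2 group means with its 95% interval for all 26 probe sets of the 8 genes (rows) in the 4 comparisons (columns), with limma calls filled in red. Calls to the right of 0 are confined to JAK2, IRF1 and SOCS1 and to the 2 knockdown columns, and those to the left are all of CISH.

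Tamoxifen itself lowered CISH, an inhibitor that binds phosphorylated cytokine receptors and is a known target of STAT5. No other member passed for tamoxifen. In control-siRNA cells 0 of the 26 member probe sets rose and 2 fell, both of CISH, where only 0.163% of all probe sets passed, 0.0916% as lower. In SRC1-siRNA cells 0 rose and all 3 of CISH fell, where 1.51% passed, 0.604% as lower. With the replicate number in the model none of these calls held, and 1 probe set of the whole table (0.00183%) passed with control siRNA and 0 with SRC1 siRNA. At an unadjusted p under 0.05 that model gave 3 members (11.5%) in each, against 8.96% and 9.18% of all probe sets.

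CISH probe set 221223_x_at read 5.06, 4.76, 4.94 and 4.67 in untreated control-siRNA arrays and 4.28, 4.36, 4.09 and 4.28 after tamoxifen. In SRC1-siRNA cells it read 4.58, 4.55, 4.66 and 4.61 untreated and 3.78 and 4.02 after tamoxifen. The untreated and treated arrays did not overlap with either siRNA, and the same-number differences were all negative, from -0.85 to -0.39. It fell by 0.60 ± 0.09, or 1.52-fold, in control-siRNA cells (limma adjusted p = 0.0343), where it ranked 9 of 54613 by p. In SRC1-siRNA cells the change was -0.70 ± 0.11 (limma adjusted p = 0.0118). The first call ended in 15 of 27 settings and the second in 3, among them the replicate number in the model (adjusted p = 0.339 and 0.147) and, for the second, leaving out SRC1 siRNA tamoxifen replicate 1 (-0.58, adjusted p = 0.156).

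Probe set 223377_x_at of CISH read 5.56, 5.47, 5.51 and 5.19 in untreated and 5.02, 4.98, 4.81 and 4.82 in tamoxifen-treated control-siRNA arrays. With SRC1 siRNA it read 5.09, 5.09, 5.19 and 5.26 untreated and 4.41 and 4.58 with tamoxifen. Again no treated array reached an untreated array of the same siRNA. The changes were -0.52 ± 0.08 (limma adjusted p = 0.0382) and -0.67 ± 0.10 (limma adjusted p = 0.0118). They did not pass with the replicate number in the model (adjusted p = 0.339 and 0.141), and the first ended in 17 and the second in 6 of 27 settings, over which the values ran from -0.61 to -0.47 and from -0.75 to -0.58.

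The third CISH probe set, 223961_s_at, had a mean of 3.87 and read 3.99, 4.06, 4.28 and 3.93 untreated against 3.96, 3.71, 3.74 and 4.08 treated in control-siRNA cells, where the groups overlapped. Its difference there was -0.20 ± 0.11 (limma adjusted p = 0.395). In SRC1-siRNA cells, 3.80, 4.06, 4.07 and 3.81 stood against 3.50 and 3.23, a change of -0.57 ± 0.13 (limma adjusted p = 0.0483) that ended in 22 of 27 settings. Probe sets whose name ends in _x_at or _s_at can hold probes that also match other transcripts, and which transcript was read was not tested. Over the 14 arrays the first 2 probe sets had a Pearson r of 0.97, and the third an r of 0.74 and 0.75 with them.

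**Figure D3:**
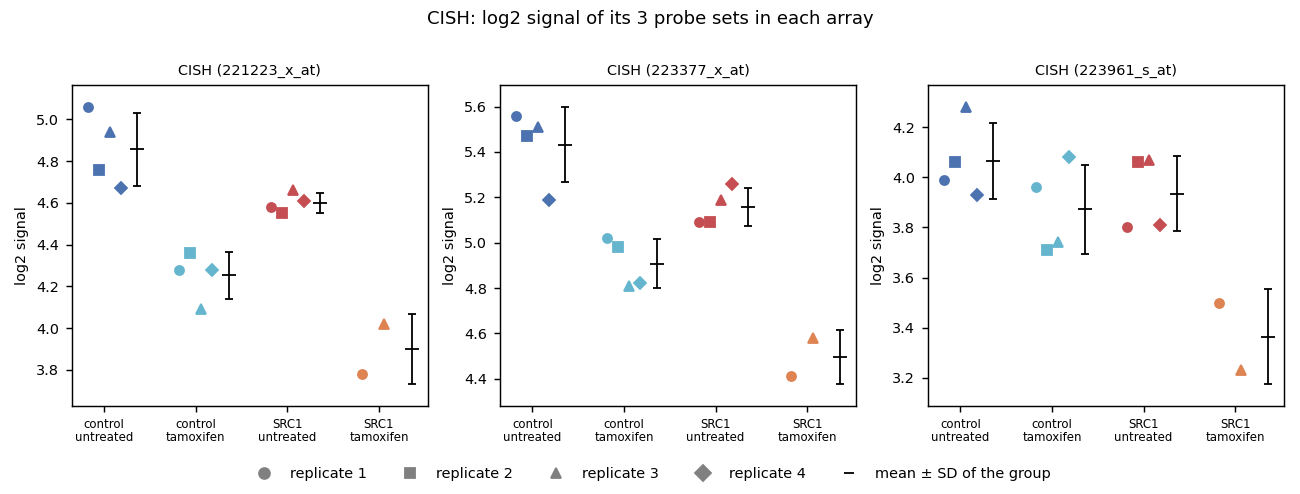
Log2 signal of the 3 CISH probe sets in the 14 arrays by siRNA and treatment, with symbols for the replicate number and bars for the group mean ± SD. For 221223_x_at and 223377_x_at every tamoxifen array is below every untreated array of the same siRNA, and for 223961_s_at this holds only in SRC1-siRNA cells.

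CISH was also lower with the knockdown, and passed only with tamoxifen present. Between siRNAs, the difference in untreated cells was -0.26 ± 0.09 for 221223_x_at (limma adjusted p = 0.0779), -0.28 ± 0.08 for 223377_x_at (limma adjusted p = 0.0535) and -0.13 ± 0.11 for 223961_s_at (limma adjusted p = 0.486), none of which passed. With tamoxifen all 3 fell, by 0.35 ± 0.11, 0.42 ± 0.10 and 0.51 ± 0.13 (limma adjusted p = 0.044, 0.0185 and 0.0226). None of these passed with the replicate number in the model (adjusted p = 0.138, 0.0775 and 0.109). The call of 221223_x_at ended in 19 of 27 settings, that of 223377_x_at in 5 and that of 223961_s_at in 9. Without SRC1 siRNA tamoxifen replicate 1 the 3 were at -0.24, -0.33 and -0.64 (adjusted p = 0.342, 0.176 and 0.0561). Without SRC1 siRNA tamoxifen replicate 3, 221223_x_at and 223961_s_at were at -0.47 and -0.37 and did not pass (adjusted p = 0.051 and 0.181). For 221223_x_at most of the other single-array omissions ended the call too. The interaction was -0.09 for 221223_x_at, -0.14 for 223377_x_at and -0.38 for 223961_s_at, and did not pass (limma adjusted p = 0.763, 0.606 and 0.273). A knockdown effect on CISH that depends on tamoxifen was thus not shown. The group means of 223377_x_at were 5.43, 5.16, 4.91 and 4.49 for control untreated, SRC1 untreated, control tamoxifen and SRC1 tamoxifen. In this order the first 2 groups of 223377_x_at overlapped (5.19 to 5.56 and 5.09 to 5.26), and the other neighbours did not.

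The interaction of knockdown and tamoxifen passed for 0 of the 26 member probe sets (limma, 0.28% of all probe sets passed), and for 3 (11.5%) at an unadjusted p under 0.05, where 17.3% of all probe sets lay. For the brightest probe sets of JAK2 and IRF1 its 95% interval ran from -0.70 to 0.50 and from -0.90 to 0.95, so a difference of the knockdown effect between treatments smaller than these bounds could not be told. An additive fit over all 14 arrays, chosen after the data were seen, gave 1 value for the knockdown and 1 for tamoxifen. For the knockdown it called 8 members higher and 2 lower, where 17% of all probe sets passed, and with the replicate number in the model 7 and 2, where 9.21% did. The 7 were all of JAK2, IRF1 and the 2 brighter SOCS1 probe sets, with adjusted p from 3.69e-04 to 0.0321. The 2 lower were 221223_x_at and 223377_x_at of CISH, at -0.30 ± 0.08 and -0.34 ± 0.08 with the replicate number (limma adjusted p = 0.0293 and 0.0147). IRF9, at 0.54 ± 0.16, passed in the fit without the number (limma adjusted p = 0.0362) and not in that with it (adjusted p = 0.104).

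For tamoxifen the additive fit called 164 probe sets (0.3%), among them 221223_x_at and 223377_x_at of CISH and no other member. With the replicate number it called 4 (0.00732%), and 221223_x_at of CISH was 1 of them (-0.65 ± 0.08, limma adjusted p = 0.0322), while 223377_x_at did not pass (-0.59 ± 0.08, adjusted p = 0.0536).

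Other genes of the pathway are given through the brightest probe set of each gene, over 19775 genes of which 5.97% rose and 5.98% fell in untreated cells, and 6.49% rose and 8.71% fell with tamoxifen. These shares fell with the replicate number in the model, to 2.53% and 2.23%, and 1.39% and 1.31%. The lists were drawn up with earlier results of these arrays known, so that their counts are descriptions. Of 13 measured cytokines that signal through JAKs, 5 rose and 0 fell in each comparison. Untreated control-siRNA cells had an interferon beta (IFNB1) signal of 5.88 ± 1.09 and untreated SRC1-siRNA cells one of 9.86 ± 1.06 (log2 mean ± SD, n = 4 each), a rise of 3.98 ± 0.67 (limma adjusted p = 0.00285). The type III interferon IFNL1 rose by 3.61 ± 0.63 (limma adjusted p = 0.0034), IFNA1 by 1.50, IL6 by 1.49 and IL15, which supports T and NK cells, by 1.65. All but IFNA1 passed with the replicate number in the model. With tamoxifen IFNB1 rose by 3.74, IFNL1 by 3.37, IFNA1 by 1.87, IL15 by 1.77 and LIF, a cytokine of the interleukin-6 family, by 1.68, none of which passed with the replicate number in the model.

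Of 20 receptor chains that bind JAKs, 3 rose and 2 fell in untreated cells and 3 rose and 0 fell with tamoxifen, with medians of 0.06 and 0.01. IFNLR1, the receptor chain of type III interferons, rose by 0.46 and 0.44, and IL15RA by 0.76 and 0.67. IL10RB, its partner in the type III interferon receptor, rose by 0.48 in untreated cells and was at -0.05 with tamoxifen, while IFNAR1 of the type I receptor fell by 0.30 in untreated cells and was at 0.00 with tamoxifen. IL11RA fell by 0.51 in untreated cells, and IL4R rose by 0.31 with tamoxifen. Only the rises of IFNLR1 and IL15RA in untreated cells passed once the replicate number was in the model. The largest of these receptor changes, 0.76, was below the smallest ligand rise that passed, 1.49. That sets only genes that passed side by side. Over all 13 measured cytokines the median difference was 0.1 in untreated cells and 0.2 with tamoxifen.

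Among 6 other JAKs and STATs measured, STAT5A rose by 0.41 in untreated cells and STAT6 by 0.46 with tamoxifen, and none fell. The STAT6 call ended with the replicate number in the model. Of 6 other IRFs, IRF7, which amplifies interferon production, rose by 0.88 ± 0.25 in untreated cells (limma adjusted p = 0.0417) and was at 0.64 with tamoxifen (limma adjusted p = 0.189). IRF8, of low signal, rose by 0.21 in untreated and fell by 0.25 in treated cells, and IRF5 rose by 0.39 with tamoxifen. None of these calls of other IRFs passed with the replicate number in the model. Of 14 other negative regulators, USP18, which restrains the type I interferon receptor, rose by 0.85 ± 0.25 and SOCS6 by 0.26 in untreated cells, and SOCS5 and PIAS1 fell by 0.34 and 0.29 with tamoxifen. All 4 calls ended with the replicate number in the model. No PTPN phosphatase on the list passed.

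The means of 2 lists of targets were furthest apart in different replicate numbers, as given below. Of 12 genes induced by interferon gamma, 10 rose in untreated cells (median 0.91) and 7 with tamoxifen (median 1.04), and 0 fell in either, led in untreated cells by CXCL10 (3.13), GBP1 (2.42) and IDO1 (2.06). WARS1, a tryptophanyl-tRNA synthetase induced by interferon gamma, rose by 0.96 ± 0.13 (limma adjusted p = 8.61e-04) and 1.27 ± 0.16 (limma adjusted p = 8.67e-04), and the peptide transporter TAP1 by 0.83 and 1.06. Once the replicate number was in the model, 6 of the 10 calls in untreated cells remained, GBP1 and IDO1 among them and CXCL10 not, and 2 of the 7 with tamoxifen, WARS1 and TAP1. Of 12 ISGF3 targets, all 12 differences were above 0 in both treatments (medians 1.49 and 0.97), but only 5 passed in untreated cells, IFIT2, MX1, ISG15, RSAD2 and IFI27, and 1, MX1, with tamoxifen. The 0.97 includes control siRNA tamoxifen replicate 4, a number absent from the SRC1-siRNA tamoxifen arrays. The mean of these targets was 9.68 in that array and 10.83 to 11.33 in the other tamoxifen-treated control-siRNA arrays. MX1 alone passed with the replicate number in the model, in both treatments. This GTPase, which blocks viruses, rose by 1.36 ± 0.15 (limma adjusted p = 3.74e-04) and 1.09 ± 0.18 (limma adjusted p = 0.00283). Of 11 STAT3 targets, 3 rose in each comparison, CEBPD and MCL1 in both, and 0 fell. MCL1 in untreated cells was the one call that remained with the replicate number in the model.

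By replicate number, the mean difference of the 12 ISGF3 targets in untreated cells was 1.05, 0.45, 0.29 and 4.22 for replicates 1 to 4, and that of the 12 interferon gamma-induced genes was 2.03, 0.71, 0.57 and 1.61. IFIT2 differed by 2.07, 0.81, 0.49 and 5.94, and IFNB1 by 6.45, 2.67, 1.76 and 5.04. The mean of the ISGF3 targets thus differed most in replicate 4, as IRF9 did with 1.68. That of the interferon gamma-induced genes differed most in replicate 1, with replicate 4 next. JAK2 (205841_at: 2.06, 0.95, 1.26 and 0.57), IRF1 (202531_at: 2.35, 0.64, 0.55 and 1.13) and SOCS1 (213337_s_at: 1.62, 0.55, 0.69 and 0.78) were furthest apart in replicate 1. With tamoxifen, replicates 1 and 3 gave 0.99 and 0.18 for the ISGF3 targets, 2.07 and 0.62 for IRF1, 1.46 and 0.81 for JAK2 and 0.64 and -0.26 for SOCS1. The part of the replicate number, or of IFNB1, in these differences was not tested.

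**Figure D4:**
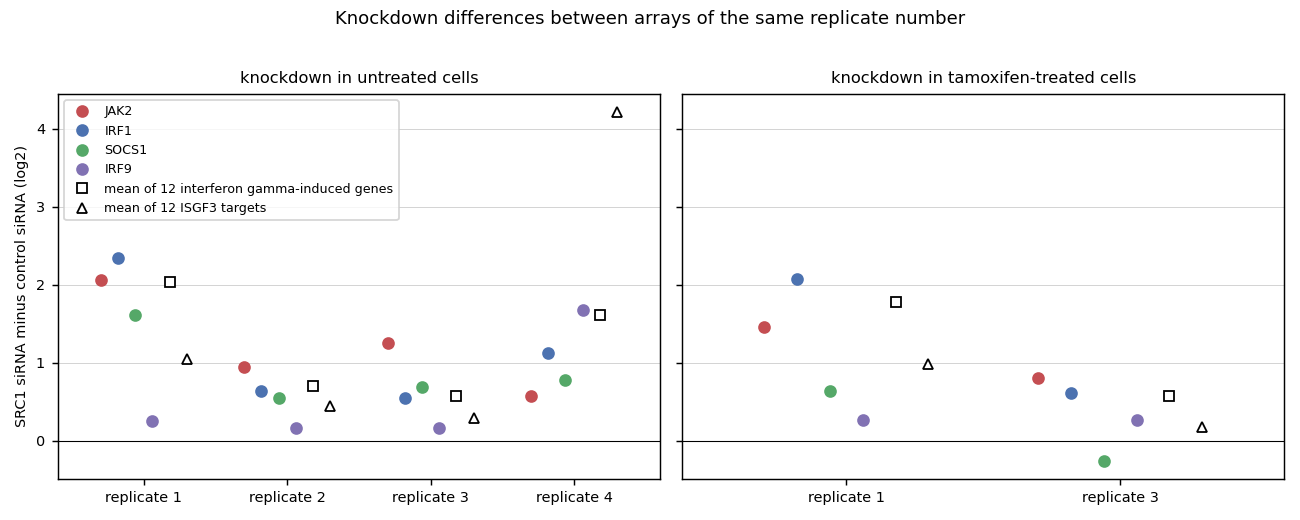
Differences in log2 signal, SRC1 siRNA minus control siRNA, between arrays of the same replicate number for JAK2, IRF1, SOCS1 and IRF9 (brightest probe sets, filled circles) and for the means of 12 interferon gamma-induced genes (squares) and 12 ISGF3 targets (triangles), in untreated (left) and tamoxifen-treated cells (right). IRF9 at 1.68 and the ISGF3 targets at 4.22 stand highest in replicate 4, and JAK2, IRF1 and SOCS1 in replicate 1.

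The genes whose log2 signal over the 14 arrays was most like that of a member, among 12263 genes above the median signal, are named with Pearson r as a description, since all arrays share the siRNA and treatment groups. IRF9 was most like the ISGF3 targets IFI44 (r = 0.983), IFI6 (0.978) and IFI27 (0.976). IRF1 was most like BTN3A2, a butyrophilin (0.984), CBR3 (0.98) and SAMD9L (0.977), JAK2 most like ACY3 (0.973), the MHC class I gene HLA-C (0.972) and PROCR (0.971), and SOCS1 most like BCL2L13 (0.949), the aminopeptidase ERAP1 (0.929) and PAPSS2 (0.924). CISH was most like ZNF22 (0.91), LOC100996756 (0.905) and IFT27 (0.894). For STAT3 the closest was GLI3 (0.927), for JAK1 FOXO6 (0.928) and for SOCS3 QTGAL (0.917).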

How the data were processed

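RNA of the 14 samples was amplified with a NuGEN Ovation kit, labelled with biotin and hybridised, per the labels' protocols, to HG-U133 Plus 2.0 arrays of Affymetrix. The values deposited by the authors are log2 signals, 1 per probe set and array. The log base was inferred from their range. The sources used here name no method of background correction or normalization. In the submitters' processing notes R 2.9.2 is the one tool listed. Array medians ran from 3.44 to 3.51, and values were used as deposited, without 62 control probe sets of 54675.

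Groups were taken from the siRNA and treatment that the labels give. A model of 4 group means over all 14 arrays was fitted to all probe sets with limma 3.58.1 (statmod 1.5.0, R 4.3.3; lmFit, eBayes), two-sided, with Benjamini-Hochberg adjustment over 54613 probe sets and a threshold of 0.05. The fit has 10 residual degrees of freedom, or 7 once the replicate number is a block. Of the probe sets, 41091 carried 1 gene symbol, 1801 several and 11721 none. Other genes were represented by their brightest probe set.

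Every member probe set could be named. Of the other lists, genes that passed could be named, and for each member the 3 genes with the highest Pearson r. Members and lists were chosen with earlier results of these data known. Some genes of the lists are not analysed here, CLCF1 and BCL3 among them. Marker lists of fibroblasts, myeloid cells and endothelium had means of 3.73 to 3.90, 2.59 to 2.99 and 2.45 to 2.84.

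Other settings tried were the replicate number as a block, median centring, quantile normalization, a filter on dim probe sets, fitting only the arrays compared, trend and robust eBayes, array weights, gene means over probe sets, and leaving out each array or replicate number. The additive fits were chosen after seeing the data. Promoters were searched with Python 3.11.15. Scripts were tested on simulated data with the same groups.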

Additional observations from a re-analysis of the deposited data

Results flagged for a closer look

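In groups of 4 arrays, the highest or lowest value was set apart where its gap to the nearest other array, divided by the range of the group, exceeded 0.829 (Dixon's 95% critical value). This held in 4 of 78 groups of member probe sets, where chance gives about 1 in 20. IRF9 in SRC1 siRNA untreated replicate 4 read 11.65, and the nearest of the other arrays 10.81 (ratio 0.915). JAK2 205842_s_at in control siRNA tamoxifen replicate 1 read 5.31 against 5.88 (ratio 0.865). SOCS1 210001_s_at in control siRNA untreated replicate 1 read 5.33 against 5.63 (ratio 0.867). STAT3 243213_at, a dim probe set, read 2.74 in control siRNA tamoxifen replicate 1 against 2.53 (ratio 0.948). The IRF9 difference in untreated cells was 0.57 with and 0.20 without the arrays of replicate 4. Leaving out that number removes the array at 11.65 and also the lowest untreated control-siRNA array, at 9.98.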

How the results depend on the processing

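Counts here are of pairs of a setting and a member result, over 27 settings and 130 results. Calls were lost in 138 pairs and gained in 18, and no call changed direction. Differences that were not called changed sign in 190 pairs. In untreated cells the calls of JAK2 205841_at and 205842_s_at and of SOCS1 213337_s_at held in all 27, and with tamoxifen that of JAK2 205842_s_at did. The replicate numbers were not taken as a pairing: the labels tie no number to a shared culture or day, and same-number deviations correlated at -0.585 to -0.0421 (median -0.334). These correlations do not show that arrays of a number were prepared separately, and whether values were adjusted between numbers before deposit was not tested.

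With the replicate number as a block, counts of member calls went from 6 to 3 and from 8 to 1 for the knockdown in untreated and tamoxifen-treated cells, from 2 to 0 for tamoxifen in control-siRNA and from 3 to 0 in SRC1-siRNA cells. Over all probe sets the block gave 2154 of 5653, 1224 of 7350, 1 of 89 and 0 of 824, and 0 of 153 for the interaction. The median F of the replicate number was 0.0428, where the null value is 0.871.

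Fitting only the arrays compared gave 5 members and 4025 probe sets for the knockdown with tamoxifen, 0 and 2 for tamoxifen in control-siRNA cells, and 109 probe sets for tamoxifen in SRC1-siRNA cells. Array weights gave 5 members for the knockdown with tamoxifen, and 232 and 371 probe sets for tamoxifen in control-siRNA and SRC1-siRNA cells. Median centring left 1 member and 35 probe sets for tamoxifen in control-siRNA cells. Leaving out dim probe sets left 246 for tamoxifen in SRC1-siRNA cells and 23 for the interaction. The additive fit gave 10 members and 9296 probe sets for the knockdown and 164 probe sets for tamoxifen, and with the replicate block 1 member and 4 probe sets for tamoxifen. The causes were not tested.

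Leaving out 1 array or all arrays of 1 number gave 3 to 7 members and 1953 to 5750 probe sets for the knockdown in untreated cells, and 1 to 8 and 1183 to 7215 with tamoxifen. For tamoxifen it gave 0 to 2 members and 0 to 68 probe sets in control-siRNA cells and 0 to 3 and 3 to 879 in SRC1-siRNA cells, and for the interaction 0 members and 0 to 346 probe sets. Where the SRC1-siRNA tamoxifen group was left with 1 array, its spread was taken from the other groups. With gene means over probe sets, the counts of genes called were as with the brightest probe sets, 3, 3, 1, 1 and 0. Signals near the floor of the arrays limit what the 7 dim member probe sets can show.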
